A study of Mus musculus with 32 samples.

Results

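HNF4A sites called only without microbes are the places in the genome of mouse jejunal intestinal epithelial cells (IECs) where an HNF4A ChIP-seq peak was found in every germ-free mouse given a high-fat meal (GF+HFM, n = 4) and in no conventionalized mouse given the same meal (CV+HFM, n = 4). Overlapping peaks of the 8 lists (1 bp or more in common) were joined, which gave 45552 sites, and 1269 of them met this rule. Because the sites were chosen on these calls, the share of 2.79% is a description and says nothing by itself about microbes. The mice were male C57BL/6J of 10 to 12 weeks. CV+HFM mice had been germ-free and were given a fecal microbiota 14 days before the experiment, GF+HFM mice stayed germ-free, and in both groups the jejunum was taken 2 hours after gavage of the high-fat meal (HFM), an egg yolk emulsion. The IEC preparations were enriched for villus epithelium and held some crypts and mesenchyme, and HNF4A was precipitated with the antibody ab41898. No RNA or protein level was used here, so the cell type could not be checked against its markers.

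HNF4A, hepatocyte nuclear factor 4 alpha, is a nuclear receptor that binds DNA as a dimer and keeps enterocytes, the absorptive cells of the villus, in their differentiated state. Its targets in the intestine include genes of the brush border, of nutrient transport and of lipid absorption and oxidation. It binds direct repeats of a hexamer with a single base between the copies, and among nuclear receptors it is known for a preference for elements that hold the letters CAAAGTCCA.

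The sequences below are the bases shared by the GF+HFM peaks of 5 of the sites (mm9, plus strand). They are shown because they hold close matches to CAAAGTCCA among the sites named further on, and the capitals mark the match on either strand. The first is the second-widest of all the sites and the second is one of the 3 narrowest. Both matches are exact, and each of the other 3 has 1 mismatch.
Slc25a36 site, chr9:97041451-97041738: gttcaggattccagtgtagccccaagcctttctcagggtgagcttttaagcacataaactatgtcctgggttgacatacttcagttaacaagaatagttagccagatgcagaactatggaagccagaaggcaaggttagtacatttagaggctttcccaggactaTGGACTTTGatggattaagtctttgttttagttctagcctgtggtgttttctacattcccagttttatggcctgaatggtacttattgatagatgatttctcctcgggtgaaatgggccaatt
Myo1d site, chr11:80603415-80603510: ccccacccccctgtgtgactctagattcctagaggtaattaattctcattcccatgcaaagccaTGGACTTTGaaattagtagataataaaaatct
Nr3c2 site, chr8:79024237-79024502: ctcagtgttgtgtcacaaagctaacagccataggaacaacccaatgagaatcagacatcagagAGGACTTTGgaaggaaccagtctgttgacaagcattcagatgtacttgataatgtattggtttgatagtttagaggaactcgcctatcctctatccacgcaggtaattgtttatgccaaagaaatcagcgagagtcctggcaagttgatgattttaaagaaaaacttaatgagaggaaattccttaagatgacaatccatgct
D5Ertd579e site, chr5:37094258-37094482: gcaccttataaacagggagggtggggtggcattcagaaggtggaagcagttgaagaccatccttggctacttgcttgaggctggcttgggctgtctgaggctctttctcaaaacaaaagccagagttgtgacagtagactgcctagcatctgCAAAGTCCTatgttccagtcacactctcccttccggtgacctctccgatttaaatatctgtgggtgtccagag
Rnf128 site, chrX:136096776-136097043: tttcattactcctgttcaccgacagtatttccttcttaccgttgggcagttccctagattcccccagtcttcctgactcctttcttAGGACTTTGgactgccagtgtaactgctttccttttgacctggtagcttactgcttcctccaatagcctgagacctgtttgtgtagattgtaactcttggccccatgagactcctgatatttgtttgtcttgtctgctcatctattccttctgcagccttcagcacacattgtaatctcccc
These examples were picked for their match and are not typical, since most of the sites held no such match, as described below.

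The peaks at these sites were narrow. The deposited lists give only the position of each peak, so peak width, ranked as a percentile within its own list, was the only measure of peak size. The median peak at the sites was 251, 222, 309 and 348 bp wide in GF+HFM replicates 1 to 4, against list medians of 313, 298, 407 and 464 bp. The mean width percentile over the 4 lists had a median of 30.7 (range 3.61 to 84.6), and 1129 of the 1269 sites (89.0%) lay below the 50th percentile. Of the other 21780 sites called in all 4 GF+HFM lists, each with a call in 1 or more CV+HFM lists, 30.4% did. The 4 lists did not rank the sites alike: the standard deviation of the percentile between lists was 16.2 at the median site. The CV+HFM lists were also shorter, with 29345, 9206, 21033 and 4533 peaks in replicates 1 to 4 against 31061 to 36846 in GF+HFM. The lack of a call in CV+HFM is therefore the lack of a peak past the threshold and not a measured absence of HNF4A. Reads per library are unknown from these files, and their part in the calls was not tested.

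**Figure D1:**
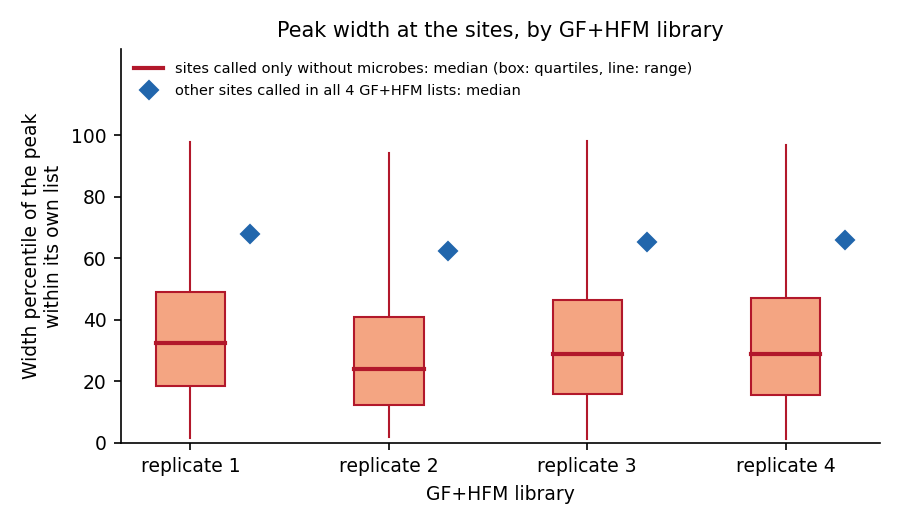
Width percentile of the HNF4A peaks (vertical axis, percent of the list's peaks that are narrower) in each GF+HFM library (horizontal axis). Boxes give the quartiles, thick lines the median and thin lines the range over the 1269 sites, and diamonds give the median of the 21780 other sites called in all 4 GF+HFM lists. In every library the sites called only without microbes have their median (24.1 to 32.4) below that of the other sites (62.4 to 68.0).

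Just outside the rule lay 4257 sites with all 4 GF+HFM calls and 1 CV+HFM call, and 2374 sites with 3 GF+HFM calls and no CV+HFM call. Their median mean width percentiles were 40.7 and 25.0, on either side of the 30.7 of the chosen sites. In the first set the single CV+HFM call came from replicate 1 at 3601 sites and from replicate 3 at 645, and from replicate 2 or 4 at 9 and 2. Which sites were chosen thus rested mostly on the lists of CV+HFM replicates 1 and 3. No site had the opposite pattern, with a peak in all 4 CV+HFM lists and in no GF+HFM list. Such a site would need a peak in CV+HFM replicate 4, whose list held 4533 peaks, whereas the shortest GF+HFM list held 31061. Counts of the opposite patterns therefore cannot be compared.

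Because narrow peaks differ from wide ones in where they lie, the sites are compared below with those 21780 other sites, called comparison sites, weighted so that they had the same distribution of mean width percentile in bins of 5 points. Intervals are 95% Wilson intervals, and reflect how many sites were counted, nothing else. Sites are not replicates of a condition, so no p-value is given for these shares.

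Sites called only without microbes lay at gene starts more often than comparison sites of the same width. Of the 1269 sites, 201 (15.8%, interval 13.9 to 18) were within 1 kb of the start of a protein-coding gene, against 10.5% of the weighted comparison sites and 13.9% without weighting. For comparison sites called in 1, 2, 3 and 4 CV+HFM lists the unweighted shares were 13.8%, 12.1%, 15.8% and 15.8%. With weighting they were 11.1% (9.99 to 12.3), 10.4% (8.61 to 12.4), 13.4% (8.87 to 19.8) and 12.8% (4.52 to 31.2). The last 2 intervals held 15.8%, so the excess was clear only against sites called in 1 or 2 CV+HFM lists. A start lay inside the site in 92 cases (7.25%, interval 5.95 to 8.81), against 4.18% of weighted comparison sites and 7.45% without weighting, so this excess was seen with weighting only. Further out the shares drew together, with 23.4% and 24.6% at 1 to 10 kb and 36.6% and 37.9% at 10 to 50 kb. More than 50 kb away lay 24.0% (interval 21.7 to 26.4) and 26.6%. The median distance was 15748 bp against 19292 bp for the weighted comparison sites. By the centre of the site, 40.7% were intergenic (interval 38.1 to 43.5; comparison 45.8%), 30.7% in an intron after the first (30.8%) and 19.3% in a first intron (17.2 to 21.6; 16.8%). Non-coding parts of exons held 6.15% (4.95 to 7.61; 4.01%) and coding exons 3.07% (2.26 to 4.17; 2.63%).

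**Figure D2:**
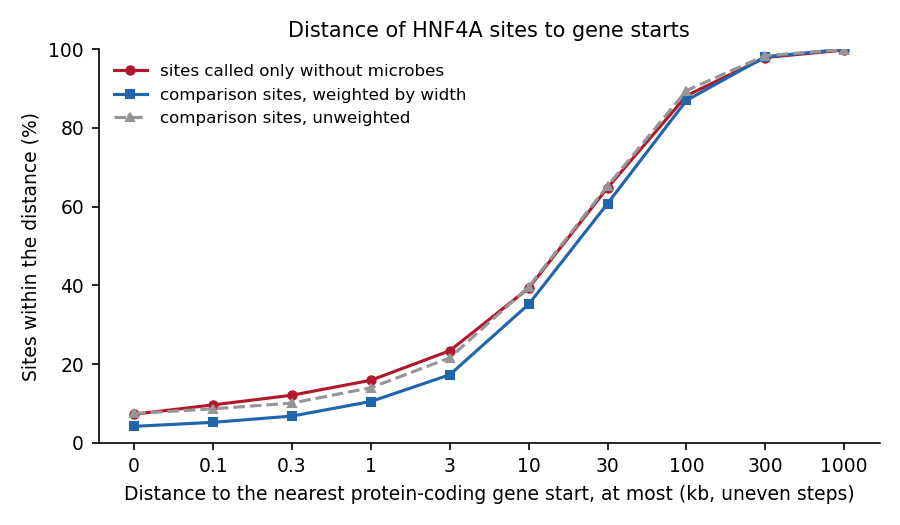
Cumulative share of HNF4A sites (vertical axis, percent) within a given distance of the nearest protein-coding gene start (horizontal axis, kb, in uneven steps). Sites called only without microbes lie above the width-weighted comparison sites up to 30 kb, and the curves meet beyond 100 kb; against the unweighted comparison sites the sign of the gap changes along the curve (15.9% against 13.9% at 1 kb, 39.3% against 39.6% at 10 kb).

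The letters of the HNF4 motif were less frequent at these sites. Sequence was read in 200 bp windows centred on the bases shared by most GF+HFM peaks, for 1266 sites, because 3 sites lie on unplaced sequences that the reference used here does not hold. CAAAGTCCA with at most 1 mismatch, on either strand, occurred in 351 of them (27.7%, interval 25.3 to 30.3), against 39.4% of weighted comparison sites and 39.7% without weighting. An exact match occurred in 59 (4.66%, interval 3.63 to 5.96), against 7.60%. The direct repeat AGGTCANAGGTCA, in which N is any base, was searched with at most 2 mismatches. It occurred in 15.6% (interval 13.7 to 17.7) against 17.3%, and 15.8% without weighting, and the interval held these comparison values. With at most 1 mismatch it occurred in 4.03% (3.08 to 5.26) against 3.89%. CAAAGTCCA and the direct repeat are elements of the HNF4 type, and 42 windows held both. In windows of 400 bp, the match to CAAAGTCCA was concentrated at the centre in both sets. Among the sites called only without microbes, 9.24% and 10.6% held a match in the 40 bp to the left and to the right of the centre, against 15.5% and 17.1% of the comparison sites. From 120 to 160 bp to the right of it the shares were 1.58% and 1.35%. The difference in motif frequency was thus in the middle of the peak. A missing match says only that these letters are not in the window.

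Other motifs moved in both directions. AGATAA, the GATA factor motif, occurred in 20.1% of the windows (interval 18 to 22.4) against 16.8% of weighted comparison windows. CCGGAAG, a motif of ETS factors common at gene starts, occurred in 2.92% (2.13 to 4.00) against 1.91%, and TTCNNNGAA, the STAT motif, in 4.34% (3.35 to 5.61) against 6.43%. The intervals held the comparison value for the CDX motif TTTATNG (10.9% and 12.2%), the AP-1 motif TGANTCA (12.2% and 12.7%), the KLF/SP motif CCNCNCCC (20.4% and 20.9%), the FOXA motif TGTTTAC (3.08% and 2.77%) and the E-box CACGTG (3.24% and 3.66%). CpG-rich windows, with a GC content above 50% and an observed to expected CpG ratio above 0.6, made up 11.8% (10.2 to 13.7) of the sites and 6.23% of the weighted comparison sites. All 2080 hexamers, each counted with its reverse complement, were also compared, and 5 in 100 of them differed by less than -1.96 percentage points and 5 in 100 by more than 1.75. The largest deficits were of ACTTTG (28.2% of the sites, 36.3% of the weighted comparison sites), AGGAAG (20.4% and 27.7%), AAAGTC (24.1% and 31.1%) and AGTCCA (27.5% and 33.7%). The first, the third and the fourth of these are pieces of the HNF4 motif or of its reverse complement, whereas AGGAAG holds the GGAA core that ETS factors bind. The largest excesses were of CCGCAG (8.61% and 4.86%), AAACAA (18.9% and 15.4%) and ATCTCA (15.2% and 11.9%).

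**Figure D3:**
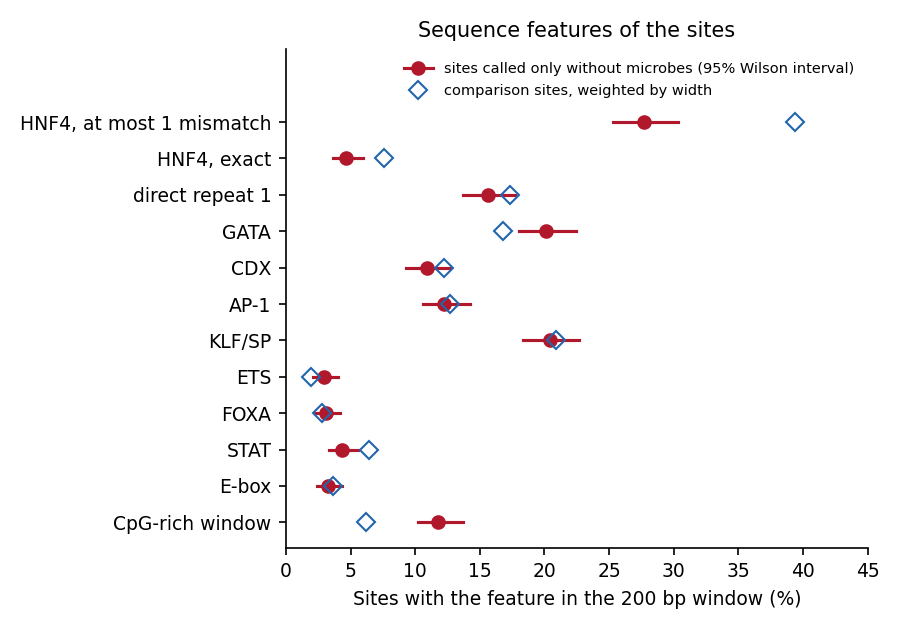
Share of sites (horizontal axis, percent) whose 200 bp window holds each motif or is CpG-rich (vertical axis). Filled circles with 95% Wilson intervals are the 1266 sites called only without microbes, and open diamonds are the width-weighted comparison sites. The widest gap is at the HNF4 motif, 27.7% against 39.4%.

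The motif deficit did not come only from the sites at gene starts. Of the 1065 sites more than 1 kb from a gene start, 30.5% (interval 27.8 to 33.3) held the HNF4 motif, against 41.0% of weighted comparison sites in the same position. Within 1 kb of a start it was 12.9% (8.98 to 18.3) of 201 against 25.0%. The direct repeat was at 4.48% (2.37 to 8.29) against 10.1% within 1 kb and at 17.7% (15.6 to 20.2) against 18.2% further away. The GATA motif was in excess away from starts, at 22.6% (20.2 to 25.2) against 18%, and within 1 kb it was at 6.97% (4.19 to 11.4) against 6.19%. The ETS motif was at 1.31% (0.785 to 2.19) against 1.17% away from starts and at 11.4% (7.75 to 16.6) against 8.28% within 1 kb. In both positions its interval held the comparison value. Of the sites within 1 kb of a start, 58.7% (51.8 to 65.3) were CpG-rich, against 45.1%.

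Both features varied with width among the sites themselves. When the sites were divided into tertiles at mean width percentiles of 25.1 and 36.1, the HNF4 motif was found in 32.7% of the narrowest tertile (interval 28.4 to 37.3), 26.8% of the middle tertile (22.8 to 31.3) and 23.6% of the widest tertile (19.8 to 27.9). The weighted comparison sites were level, at 38.9%, 39.9% and 39.3%. The share within 1 kb of a gene start ran the other way, at 9.22% (6.82 to 12.4), 15.4% (12.2 to 19.1) and 22.9% (19.2 to 27.2), against 7.97%, 11.4% and 12.0%. The widest sites thus stood furthest from comparison sites of their own width in both features.

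**Figure D4:**
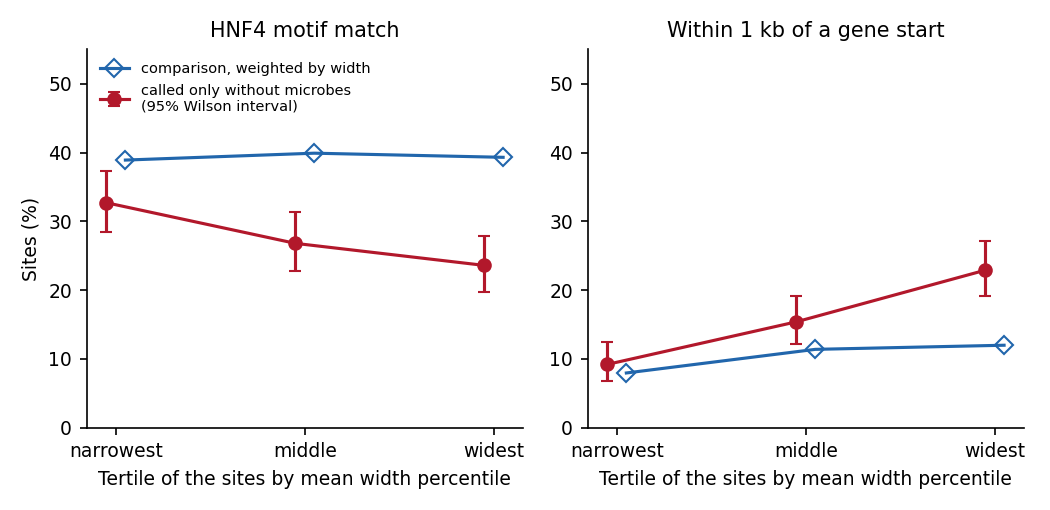
Share of sites (vertical axes, percent) with a match to the HNF4 motif, left, and within 1 kb of a protein-coding gene start, right, in tertiles of the sites by mean width percentile (horizontal axes). Circles with 95% Wilson intervals are sites called only without microbes and diamonds are width-weighted comparison sites; in the widest tertile the values are 23.6% and 39.3% for the motif and 22.9% and 12.0% for gene starts.

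Sites that just missed the rule showed the same directions. Among sites called in 3 of 4 GF+HFM lists, 26.7% (interval 25.0 to 28.6) of the 2363 with no CV+HFM call and a sequence in the reference held the HNF4 motif, against 33.0% of those with a CV+HFM call, weighted by width in the same way. Among sites called in 2 GF+HFM lists the shares were 24.3% (23.0 to 25.7) and 31.5%. Gene starts within 1 kb were found for 16.9% (15.5 to 18.5) against 13.1%, and for 17.9% (16.8 to 19.2) against 14.3%. These sites come from the same libraries as the chosen ones and are no independent replication.

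Other HNF4A sites lay about as near to these sites as to comparison sites of the same width. Another site that was called in CV+HFM lay within 10 kb of 761 of them (60.0%, interval 57.2 to 62.6), against 59.3% of weighted comparison sites, and within 50 kb of 88.3% against 88.5%. The median gap was 6389 bp against 6325 bp. Without weighting, the comparison sites were closer to CV+HFM sites, with 67.8% within 10 kb and a median gap of 4474 bp. Against sites called in 3 or 4 CV+HFM lists, of which 49.6% had one within 10 kb after weighting, the direction was the opposite. Another site of the same set lay within 10 kb of 65 of them (5.12%, interval 4.04 to 6.48), and 4.31% of the weighted comparison sites had one as near. Over the genome, 1269 of the 23049 all-4 GF+HFM sites met the rule. On chromosomes 1 to 19 and X the share was lowest on chromosome 12, at 3.96% (36 of 909, interval 2.87 to 5.43). It was highest on the X chromosome, at 8.30% (21 of 253, 5.49 to 12.4). The width-weighted numbers were 55.7 for chromosome 12 and 23.7 for the X chromosome, so both held fewer sites than their weighted number.

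One measure was compared over the mice, the rank of neighbouring sites. Among the 3445 sites called in all 8 lists, 196 lay within 10 kb of a site called only without microbes. Their widths had no part in the rule, but they were picked through sites chosen on the condition labels of these same libraries. The relabellings below kept that choice fixed. Their p-values thus describe how the libraries were ordered and are no independent test of microbes. Widths were ranked again within each library among these 3445 sites alone, so that lists of different length could be compared. On this scale the mean percentile of the neighbours was 55.1, 53.6, 57.1 and 55.6 in GF+HFM replicates 1 to 4 and 51.8, 53.2, 50.8 and 53.3 in CV+HFM replicates 1 to 4. All 4 GF+HFM values were above all 4 CV+HFM values, by a narrow margin between GF+HFM replicate 2 and CV+HFM replicate 4. The means were 55.4 ± 1.41 and 52.3 ± 1.18 (SD, n = 4 each), a difference of -3.08 points (CV+HFM minus GF+HFM, exact permutation test over 70 relabellings, two-sided, p = 0.0286, the smallest p this design allows). The call was lost with neighbours within 5 kb (exact permutation p = 0.114), with 200 bp windows at peak midpoints (p = 0.0857) and with 50% of a site covered (p = 0.743). Within 50 kb it was kept at a smaller difference of -1.81 points (exact permutation p = 0.0286). With the replicate number as a block the exact permutation p was 0.125, the smallest that 16 exchanges allow, so no call was possible there. The difference shrank to -1.41 points when CV+HFM replicate 1 was left out and to -1.48 when replicate 4 of that group was.

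To see calls in a library that the choice had not used, each library was left out in turn and the rule was applied to the other 7. CV+HFM replicate 1 then called 73.9% (interval 72.7 to 75.2) of the 4870 sites that met the rule without it, and replicate 3 called 33.7% (31.6 to 35.8) of 1914. Replicates 2 and 4 called 0.704% of 1278 and 0.157% of 1271. Of width-weighted sites with a call in 1 or more of the other CV+HFM lists, the same libraries called more: 87.1% and 53.9% for replicates 1 and 3, and 10.0% and 2.39% for replicates 2 and 4. The difference was negative in 4 of 4 libraries, with a mean of -11.2 ± 7.49 percentage points (SD, n = 4). The left-out GF+HFM libraries called 50.9% to 83.9% of the sites that met the rule without them, against 79.3% to 93.8% of weighted comparison sites. Sites without CV+HFM calls were thus called less often in a further library of either condition than other sites of their width. Those other sites were chosen for having 1 or more CV+HFM calls, so the choice itself favours this direction. The mean difference was -16.4 ± 8.21 points over the GF+HFM libraries (n = 4), and the 2 conditions were not tested against each other.

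**Figure D5:**
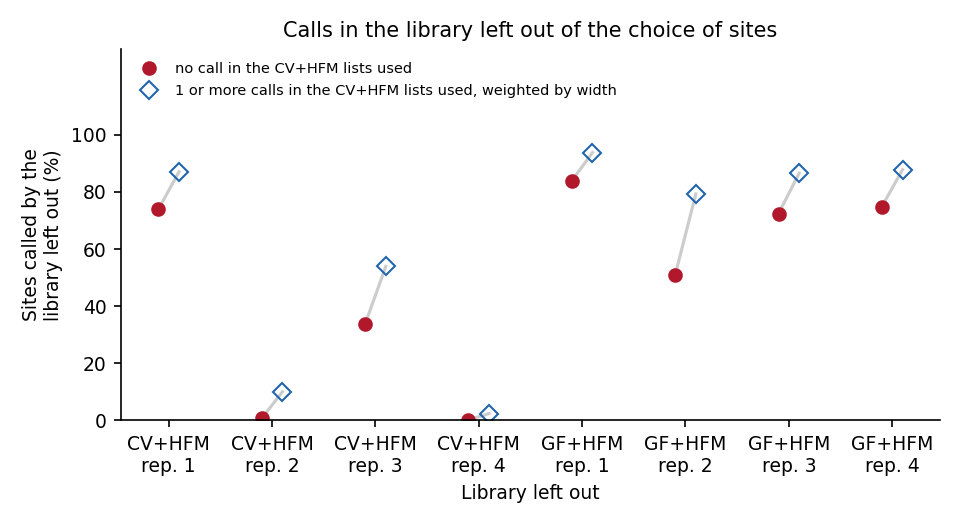
Share of sites called by a library that was left out when the sites were chosen (vertical axis, percent), for each of the 8 libraries (horizontal axis). Circles are sites with all GF+HFM calls and no CV+HFM call in the lists used, and diamonds are sites with all GF+HFM calls and 1 or more CV+HFM calls there, weighted by width. The circle lies below the diamond in every library, and the CV+HFM values run from 0.157% in replicate 4 to 73.9% in replicate 1.

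The sites were scattered over many genes. The 1266 sites on placed chromosomes were nearest to 1137 protein-coding genes, of which 1019 had 1 site, 108 had 2, 9 had 3 and 1 had 4. A site called in 1 or more CV+HFM lists was nearest to the same gene for 959 of them (84.3%). Genes nearest to a comparison site have such a site by definition, so no matching share can be set beside this one. The other 178 genes had no CV+HFM call, and of these Olfr713, an olfactory receptor gene, and Wars2, the mitochondrial tryptophanyl-tRNA synthetase, had 2 sites each. Those 2 genes were named after their values were seen. The gene with 4 sites was Gm20388, a gene model on chromosome 8 from 122434741 to 126869622 that spans many other genes and holds 116 sites called in all 4 GF+HFM lists. Of the genes with 3 sites, those with the largest share of their all-4 GF+HFM sites in the set were Gdi2, a regulator of Rab GTPases (3 of 5), Rnf128, an E3 ubiquitin ligase (3 of 6), Slc23a2, a sodium-dependent vitamin C transporter (3 of 6), and D5Ertd579e (3 of 7). Over all genes, 1269 of 23049 such sites were in the set. These genes were picked from the 1137 for their high counts. At Rnf128 a site lay 735 bp upstream of the start and the other 2 lay in introns, 88965 and 90039 bp downstream of the start. At Slc23a2 all 3 were in introns, and at Gdi2 they lay 824 bp upstream, 394822 bp upstream and inside the gene.

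Gene lists for 10 functions or cell types of the intestine were used to describe the neighbours, and 82 sites (6.46%, interval 5.24 to 7.95) had a nearest gene on any of them, against 5.17% of weighted comparison sites, which would be 65.6 sites. Without weighting the comparison share was 6.48%, so the difference turned to -0.0166 points, and with 50% of a site covered it was 0.0723. Transcription factors and nuclear receptors had 28 sites at 22 of 62 genes, against a weighted number of 17.8. Fatty acid oxidation and ketogenesis had 12 sites at 9 genes, against 6.89, and goblet, Paneth, enteroendocrine and tuft cell genes had 4 against 1.97. Lipid absorption and chylomicron assembly (7 against 5.11), crypt, stem cell, Notch and Wnt genes (9 against 8.07), the circadian clock (2 against 1.80) and stromal and immune markers (2 against 1.15) were within 2 sites of the weighted number. Fewer sites than the weighted number lay near genes of brush border digestion and nutrient transport (7 against 9.83), the microvillus and junctions (8 against 9.53) and microbe-induced defence and MHC class II (3 against 3.45). These are counts of positions, and the lists were drawn up with earlier results of these data known. For each list the interval of the sites' share is wide: for fatty acid oxidation it was 0.542% to 1.65%, against a weighted share of 0.543%, and for transcription factors 1.53% to 3.17%, against 1.40%. Without weighting, 28 of the 427 all-4 GF+HFM sites of the transcription factor list were in the set (6.56%). For fatty acid oxidation it was 12 of 142 (8.45%) and for all lists together 82 of 1493 (5.49%). Over all genes, 1269 of 23049 were.

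Among transcription factors, the sites at Nr3c2, the mineralocorticoid receptor (mean percentile 60.9, 398585 bp upstream of its start), Rxra, the shared partner of many nuclear receptors (56.8, 27717 bp beyond the end of the gene), and Id1, an inhibitor of helix-loop-helix factors (55.8, 482 bp downstream of the start), were among the widest. Sites at Hnf4a, Hnf4g, Ppara and Pparg were looked up after the counts were seen. Hnf4a itself had 2 of its 9 all-4 GF+HFM sites in the set, where over all genes 1269 of 23049 were. The first, chr2:163332159-163332533, ended 11 bp before the outermost annotated start of the gene, was 291, 315, 352 and 374 bp wide in the 4 lists and held the HNF4 motif with 1 mismatch. The second, at chr2:163338474-163339031, lay 5930 bp downstream of that start. At Ppara, the nuclear receptor that drives fatty acid oxidation, 1 of 21 sites was in the set. It covered the gene start at chr15:85564982-85565678, was 529, 170, 233 and 224 bp wide, and had a site called in CV+HFM 112 bp away. The Pparg site, in intron 6 at chr6:115416498-115417264, held an exact HNF4 motif, and the Hnf4g site lay in a coding exon 125865 bp downstream of the start. None of these 4 genes lacked sites called in CV+HFM, with 10 at Hnf4a, 5 at Hnf4g, 22 at Ppara and 4 at Pparg.

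Genes of fatty acid oxidation had sites in several positions. At Eci1, an isomerase that handles unsaturated fatty acids, the site covered the gene start (chr17:24563078-24563761), with peaks of 446, 316, 210 and 579 bp and a mean percentile of 50.0. At Cpt1a, which controls the entry of fatty acids into mitochondria, the widest of 2 sites lay in intron 1, 21653 bp downstream of the start, with peaks of 199, 284, 295 and 678 bp. The Acad10 site, in intron 18, had a mean percentile of 43.8, and the Acaa2 site, 2078 bp beyond the end of this thiolase gene, 41.0. For these sites the gaps to sites called in CV+HFM were 545 bp (Eci1), 11385 bp (Cpt1a), 1569 bp (Acad10) and 1433 bp (Acaa2). Among the genes of lipid handling, Slc27a2, which activates very long-chain fatty acids, had a site 1804 bp upstream of its start with peaks of 505, 267, 795 and 995 bp (mean percentile 76.0). The site in intron 2 of Lipe, hormone-sensitive lipase, followed at 71.0, then those of Gpam, a glycerol-3-phosphate acyltransferase, at 38.1 and Lpin2, a phosphatidate phosphatase, at 33.7. The Gpam site lay 240838 bp beyond the end of its gene and the Lpin2 site in intron 1. The gaps to sites called in CV+HFM were 75 bp (Lpin2), 1424 bp (Lipe), 2506 bp (Gpam) and 4608 bp (Slc27a2). The list with the highest width percentile was not the same at each of these sites. It was replicate 1 at Lipe and Eci1, replicate 2 at Acad10, replicate 3 at Acaa2, Gpam and Lpin2, and replicate 4 at Cpt1a and Slc27a2.

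Of the 4 widest sites near brush border genes, those at Asah2 and Dpp4 lay within 1 kb of the gene start. The site at Asah2, the neutral ceramidase, lay 437 bp downstream of the start with peaks of 459, 213, 761 and 857 bp (mean percentile 68.3), and that of the peptidase Dpp4 148 bp downstream with peaks of 428, 306, 264 and 352 bp (43.2). A site called in CV+HFM lay 65 bp from the Asah2 site and 5104 bp from the Dpp4 site. Slc6a19, the neutral amino acid transporter, had its site 2591 bp into the gene (38.6), and Slc15a1, the peptide transporter, 22128 bp beyond its end (37.5). On the microvillus and junction list, Krt19, a keratin, had 2 sites with mean percentiles of 83.8 and 42.1. The site of Eps8l2, an actin-binding protein, was at 66.7 and that over the start of Ocln, occludin, at 40.2. The gaps to sites called in CV+HFM were 447 bp (wider Krt19 site), 2225 bp (narrower Krt19 site), 344 bp (Eps8l2) and 15803 bp (Ocln). The Ocln site shows how far the lists could differ, with peaks of 917, 230, 267 and 288 bp.

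The 3 sites near genes of defence were at Tnfaip3, Socs3 and Naip1. Tnfaip3, a brake on NF-κB signalling, had a site 166128 bp upstream (mean percentile 39.9), and Socs3, an inhibitor of cytokine signalling, had a site 87 bp upstream of its start (chr11:117831448-117831932, 36.3). Naip1, a sensor of bacterial proteins, had a site 33872 bp beyond the gene (22.8). The gaps to sites called in CV+HFM were 650 bp (Tnfaip3), 265 bp (Socs3) and 2351 bp (Naip1). Of the 9 sites whose nearest gene was on the crypt and stem cell list, the 4 widest were those of Cdk6 (57.4), Efnb2 (40.3) and Lrig1, with 2 sites in intron 1 (38.1 and 32.8). The Efnb2 site lay 680246 bp beyond the end of its gene, whereas that of Cdk6 lay in an intron. The secretory and tuft cell genes were Pou2f3 (50.7), Tff3 (28.4), Clca3 (28.0) and Cck (18.1). The clock genes were Npas2 (35.5) and Bhlhe40, at 179 bp downstream of the start (33.7). Csf1r, a macrophage receptor, had 2 intronic sites (30.3 and 15.0). All of these were single regions assigned to their nearest protein-coding gene at any distance, and expression was not measured here.

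The widest sites of all were nearest to genes of unrelated function. The first lay 22577 bp upstream of Fchsd2 (chr7:108233471-108234712), with peaks of 652, 306, 1211 and 1212 bp in GF+HFM replicates 1 to 4 and a mean percentile of 84.6, and the nearest site called in CV+HFM was 10585 bp away. The second, printed above, lay 29402 bp upstream of Slc25a36, a mitochondrial carrier of pyrimidine nucleotides (peaks of 664, 339, 931 and 871 bp, 84.1). The one at Krt19 (83.8) followed. Further down were sites in intron 2 of Rai14 (80.6), over the start of Dpp8 (79.6), 1375 bp upstream of Zcchc6 (79.4) and over the start of Uqcr10 (78.4). Their gaps to sites called in CV+HFM were 354, 10885, 665 and 7556 bp in this order. Dpp8 encodes a cytosolic peptidase, and its site had peaks of 782, 594, 426 and 682 bp and a GC content of 62.5%. Uqcr10, a subunit of respiratory complex III, had peaks of 634, 535, 706 and 455 bp at its site and a GC content of 61.5%. Of the 8 widest sites, the one at Slc25a36 alone held the HNF4 motif with at most 1 mismatch. Among the 6 widest sites over a gene start, the one at Arf1, a small GTPase of vesicle transport (mean percentile 62.6), was the one with such a match. At the other end, the 3 narrowest sites were in intron 1 of Mbnl2 (3.61), 9814 bp upstream of Myo1d (5.52) and in intron 2 of 1700123I01Rik (6.13). Their peaks were 157 to 249 bp wide, and the Myo1d site, printed above, held an exact match.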

How the data were processed

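The HNF4A ChIP-seq peak list of each mouse was used (GF+HFM, n = 4; CV+HFM, n = 4). The authors aligned the reads to mm9 using Bowtie2, then called peaks per mouse against input with MACS2 2.1.1.20160309 (bandwidth 300), without pooling. The deposited values are positions in bp (chromosome, start, end), so no count, score or signal could be tested. The labels list 1 input per condition, so input and condition cannot be told apart.

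Positions are printed from 1. Merged sites numbered 45552, as with bedtools 2.31.1. No peak ended beyond a chromosome of NCBIM37, whose sequence was read for mm9. Genes follow GENCODE M1 (22380 protein-coding genes), and a gene start is the outermost 5′ end. Comparison sites were weighted to the chosen sites by mean width percentile in bins of 5 points, which left an effective number of 4487. Python 3.11.15, numpy 2.4.6 and pandas 2.3.3 were used. Weighting, motif search and the exact permutation test were tested on simulated data.

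The set, the gene lists and the motifs were chosen with earlier results of these data known. Named were the 8 widest sites, the 5 genes with most sites, up to 4 widest sites per list, the 6 widest over a gene start (of which some are given by name) and the 3 narrowest. Of these, 1 site and 1 sequence that this rule names are not reported here. Replicates are individual mice per the study's methods. Alternatives are given at the end.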

Additional observations from a re-analysis of the deposited data

How the results depend on the processing

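The number of sites was 1271 to 4871 with 1 library left out. GF+HFM replicate 2 left out gave 2493, CV+HFM replicate 1 gave 4871 and replicate 3 of that group gave 1914, and it was 2226 where a library had to cover 50% of a site. With 1 library left out, the excess within 1 kb of a gene start was 3.18 to 7.37 percentage points (3.25 with GF+HFM replicate 1 out, 3.18 with replicate 3 of CV+HFM out), the HNF4 motif difference was -12.0 to -8.10 points, the difference in CV+HFM sites within 10 kb -1.83 to 3.78, the gene list difference 0.909 to 1.54 and the mean difference in calls by a left-out CV+HFM library -14.6 to -8.45. With 50% of a site covered, the first 3 were 2.41, -4.26 and -2.62 and the gene list difference was 0.0723. Without weighting by width, the gene start excess was 1.90, the difference in CV+HFM sites -7.82, that in the gene lists -0.0166 and that in left-out calls -31.8. Against sites called in 3 or 4 CV+HFM lists they were 2.79 for gene starts, -23.7 for the motif, 10.4 for CV+HFM sites and 3.60 for the gene lists, but few such sites are as narrow. Exact matches gave a motif difference of -2.94. The motif and gene start differences kept their direction under every alternative run, and the difference in CV+HFM sites within 10 kb did not keep one. The difference in the rank of neighbouring sites was -3.65 to -1.41 points with 1 library left out (exact permutation p 0.0571 to 0.114, where the smallest possible is 0.0571), -2.19 with 50% of a site covered (p = 0.743), -2.22 with midpoint windows (p = 0.0857), -2.48 within 5 kb (p = 0.114) and -1.81 within 50 kb (p = 0.0286). The values nearest 0 came with replicate 1 (-1.41) and replicate 4 (-1.48) of CV+HFM out. With the replicate number as a block it was -3.08 (exact permutation p = 0.125, the smallest that 16 exchanges allow). Because the neighbours were picked through the condition labels, none of these p-values is an independent test. Same-numbered libraries had correlations of 0.0419, 0.0569, -0.0555 and 0.154 in their deviations from the group means, so the numbers were not taken to pair mice. The causes were not tested. Depth is unknown, so whether HNF4A was bound below the calling threshold in CV+HFM was not tested.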
